A study of Homo sapiens with 4 samples.

Results

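A set of 119 genes was low at day 2 of a culture of human embryonic stem cells moving toward blood, and higher both before and after it. A gene belonged to the set where it had at least 10 CPM at day 0 and at day 4, CPM being the count scaled to a common library total, and where its log2(CPM + 1) at day 2 lay at least 0.80 below both. On that scale 0.80 is 1.74-fold. Of 19390 genes listed in any library, 9118 reached 10 CPM at both days, and 126 of these, which is 1.38%, passed the dip rule. The opposite shape, a day 2 level at least 0.80 above both other days, was met by 196 of the 9118 genes, or 2.15%. Of the 126 genes, 7 were left out by name: 3 read-through gene models, and 4 genes whose symbols begin with ITG, COL, KCN or IFIT. ITGA6, the integrin alpha 6 subunit, was among those left out and was chosen for mention after its values were seen. It had 352, 81.4, 303 and 235 CPM at days 0, 2, 3 and 4. The values of days 0, 2 and 4 chose the genes, so at those days they are a description and support nothing further. Day 3 is the library that the rule did not use.

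The cells were H1, an established human embryonic stem cell line, labelled wild type, with 1 library each at days 0, 2, 3 and 4. In the submitters' protocol, Custom mTeSR1 medium carried activin A at 40 ng/ml and BMP4 at 50 ng/ml for 2 days, then VEGF at 40 ng/ml and bFGF at 50 ng/ml for 2 days. By that schedule day 2 was the end of the first step, and days 3 and 4 belonged to the second. RNA was taken with Trizol, and 2 µg of total RNA went into each Illumina TruSeq library. There were no replicates, so no test between days was possible. Ratios carry exact 95% intervals, which cover counting error only, since reads without molecular identifiers are not independent molecules. In bulk RNA, fewer cells that express a gene and less of its RNA per cell cannot be told apart.

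Activin A and BMP4 push pluripotent cells toward a primitive streak and mesoderm state, in which pluripotency genes are lost and streak genes such as TBXT and EOMES come on for a short time. VEGF and bFGF then favour the KDR-positive mesoderm from which endothelial and blood-forming cells arise. FGF and PDGF ligands, WNT antagonists and modifiers of NOTCH are known to act at more than one of these stages.

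Marker genes of these stages changed over the days, though not all alike. POU5F1 had 962, 396, 203 and 127 CPM at days 0, 2, 3 and 4, and SOX2 had 292, 0.770, 0.769 and 1.27 CPM. NANOG had 199.6, 83.7, 95.8 and 42.3 CPM and LIN28A had 2481, 1275, 1491 and 1330 CPM, so both were higher at day 3 than at day 2. EOMES, a streak transcription factor, had 0.595, 367, 167 and 37.5 CPM and so stood highest at day 2. KDR, the main VEGF receptor, had 214, 347, 863 and 944 CPM, CDH5 of endothelial junctions had 0.595, 0.192, 19.99 and 83.6 CPM, and TAL1, a regulator of blood and endothelial fate, had 0.198, 0, 37.7 and 86.5 CPM. Markers of mature blood stayed low. PTPRC was highest at day 0, at 5.56 CPM, and had 0.728 CPM at day 4, and GATA1 had no more than 1.82 CPM. Of fibroblast markers, COL1A1 had 241, 236, 661 and 1236 CPM and LUM had 0.595, 22.3, 35.6 and 91.0 CPM. DCN had no more than 0.546 CPM, and THY1 ended below its start. Of 28 gene lists for pathways and cell types, 5 held a gene of the dip set and 23 held none. Of all 9118 eligible genes 119 were in the set, but a count of lists is not a share of genes, and lists differ in size. Several lists could hold few members or none: 11 pluripotency genes, 3 endothelial genes, 1 blood gene and 0 primitive streak genes reached 10 CPM at days 0 and 4. Depth was even across the days, at totals of 5.04, 5.20, 5.20 and 5.49 M in expected counts, so that a single read was worth 0.198, 0.192, 0.192 and 0.182 CPM.

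The set held 115 protein-coding genes, 3 transcribed pseudogenes and 1 gene ID without a name in RefSeq. Together the 119 genes took 0.990, 0.237, 0.446 and 0.663% of all counts at days 0, 2, 3 and 4. CD24 alone made up much of this sum. Without CD24 the summed level was 6743, 1869, 3726 and 5672 CPM on the same days, so the trough at day 2 and the partial recovery remained. Median levels of the 119 genes were 28.5, 9.43, 19.6 and 28.4 CPM, whereas the median of the 9118 eligible genes was 49.0, 49.6, 50.6 and 49.7 CPM. The dip, taken as the smaller of the 2 distances from day 2, was at least 2 log2 units in 8 genes and between 0.80 and 1 in 52. By the rule, all 119 genes were at least 0.80 lower at day 2 than at day 0, as were 8.84% of eligible genes, and at least 0.80 higher at day 4 than at day 2, as were 5.17%. Counts at day 2 were small, with a median of 49 reads per gene and a range of 4 to 2585.

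**Figure D1:**
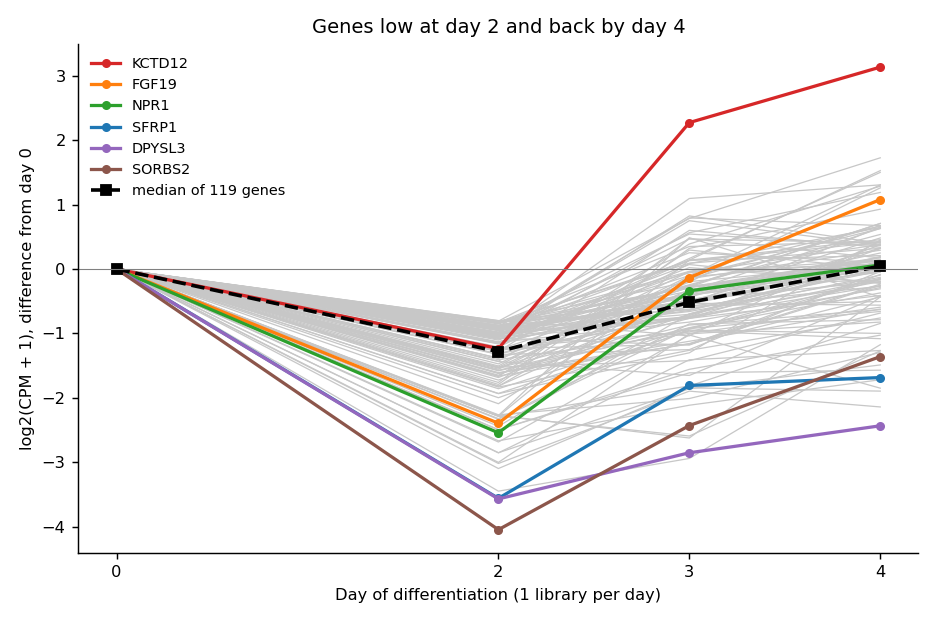
Difference in log2(CPM + 1) from day 0 at days 0, 2, 3 and 4 for each of the 119 genes (grey lines), with 6 genes coloured and the median dashed in black. Every line lies at least 0.80 below its own day 0 and day 4 level at day 2, as the rule requires, while day 3 was free to fall anywhere; KCTD12 leaves the rest upward and DPYSL3 remains far below its start.

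The deepest dips belonged to genes with few reads at day 2. SORBS2, an adaptor protein of actin structures, had 28.2, 0.770, 4.42 and 10.4 CPM at days 0, 2, 3 and 4, and its day 2 value rested on 4 reads. NPR1, the guanylate cyclase receptor of atrial natriuretic peptide, had 18.3, 2.31, 14.2 and 19.1 CPM. Its days 0 and 4 were equal within counting error, at a ratio of day 4 over day 0 of 1.05 (0.784 to 1.40). Day 2 was lower, as the rule requires. PDGFA, a ligand of the PDGF receptor alpha chain, had 27.4, 4.23, 16.5 and 27.7 CPM. TM4SF18, a membrane protein with 4 membrane spans, had 12.3, 1.73, 13.6 and 37.3 CPM and so ended above its start. These 4 genes are the deepest dips that have an entry among the RefSeq promoter sequences, and their promoters are shown for that reason alone. The low day 2 level that they share is what the rule requires, and their levels at day 4 relative to day 0 differed. Each runs from 250 bases before to 50 bases after the gene's start on build GRCh38.p14. They are read 5′ to 3′ on the gene's own strand, and capitals mark matches on either strand to the motifs named next.
SORBS2: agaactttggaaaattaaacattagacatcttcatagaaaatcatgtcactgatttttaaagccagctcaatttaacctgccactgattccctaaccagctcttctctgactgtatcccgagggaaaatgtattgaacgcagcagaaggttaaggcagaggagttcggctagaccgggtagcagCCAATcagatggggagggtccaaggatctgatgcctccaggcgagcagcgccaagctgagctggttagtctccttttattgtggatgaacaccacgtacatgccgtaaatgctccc
NPR1: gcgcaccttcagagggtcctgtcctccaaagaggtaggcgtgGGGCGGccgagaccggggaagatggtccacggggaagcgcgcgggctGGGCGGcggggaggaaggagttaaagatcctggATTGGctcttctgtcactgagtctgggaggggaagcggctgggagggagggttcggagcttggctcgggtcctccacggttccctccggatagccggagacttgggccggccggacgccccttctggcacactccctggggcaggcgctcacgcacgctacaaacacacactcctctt
PDGFA: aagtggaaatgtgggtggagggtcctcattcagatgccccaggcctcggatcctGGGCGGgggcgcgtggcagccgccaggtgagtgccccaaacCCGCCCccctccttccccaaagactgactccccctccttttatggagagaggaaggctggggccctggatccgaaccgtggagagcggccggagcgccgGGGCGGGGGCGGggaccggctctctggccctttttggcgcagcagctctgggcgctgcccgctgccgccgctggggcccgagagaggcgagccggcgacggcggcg
TM4SF18: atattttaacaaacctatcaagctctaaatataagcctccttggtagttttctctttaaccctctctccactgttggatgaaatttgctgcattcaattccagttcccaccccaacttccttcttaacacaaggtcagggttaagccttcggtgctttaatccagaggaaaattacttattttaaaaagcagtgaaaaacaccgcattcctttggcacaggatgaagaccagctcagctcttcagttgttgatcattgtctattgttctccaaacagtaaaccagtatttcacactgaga
The windows lie at chr4:185956323-185956622 on the minus strand for SORBS2, chr1:153678438-153678737 on the plus strand for NPR1, chr7:520177-520476 on the minus strand for PDGFA and chr3:149333587-149333886 on the minus strand for TM4SF18. The capitals in SORBS2 are a CCAAT box, those in PDGFA are 4 GC boxes, and NPR1 held both kinds. TM4SF18 held no match to any of the 9 motifs searched. The promoters differed widely in base composition, with a G and C content of 47.0, 66.3, 71.7 and 39.3% in SORBS2, NPR1, PDGFA and TM4SF18.

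Of the 119 genes, 94 had a promoter in that table, and they are set beside 7515 promoters of the 9118 eligible genes. The 9 short motifs were searched on both strands: the TATA box TATAAA, the CCAAT box named by its letters, the GC box GGGCGG, the E-box CACGTG, the AP-1 site TGANTCA, the ETS core CCGGAA, the TCF and LEF core CTTTGAT, the GATA core AGATAA and the SMAD element CAGACA. The GC box was in 68.1% of the 94 promoters, against 72.4% of the eligible genes and 44.6% of all 27305 promoters. The CCAAT box was in 33%, against 37.7% of eligible genes. CCGGAA was in 12 of the 94, or 12.8%, against 33.4% of eligible genes and 17.6% of all promoters. This difference from eligible genes was the widest among the 9 motifs and was not tested. The SMAD element was in 11.7% of both, and the E-box in 9.57% against 10.7% of eligible genes. The AP-1 site was in 3.19% against 3.75%, the TATA box in 6.38% against 4.67% and the GATA core in 6.38% against 4.36%. No promoter of the 94 held CTTTGAT, which was in 1.28% of eligible ones. Median G and C content was 65.7% both in the 94 promoters and in those of eligible genes. A C followed by a G, as in CCGGAA, occurred at a median of 24.5 times in the 94 and 27 times in eligible ones. First quartiles of that number were 13.25 and 20. A match here is a run of letters and not a site, and a window without it says nothing about the factor.

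At day 3, after 1 day in VEGF and bFGF, 63 of the 119 genes stood at least 0.80 above day 2, which is 52.9%. Among the 9118 eligible genes the share was 2.90%, and among 15310 genes with at least 1 CPM at day 2 or 3 it was 8.71%. Both shares use the day 2 library that chose the genes, so the difference between them partly follows from the rule and was not tested. The median of day 3 minus day 2 was 0.84 in the set, with quartiles of 0.50 and 1.42, against 0.00 in eligible genes. In 114 genes, 95.8%, day 3 was above day 2, against 49.9% of eligible genes. The counting interval of the day 3 over day 2 ratio lay above 1 in 92 and held 1 in 27. No share of eligible genes was computed for these interval counts, so nothing is read from them. The day 3 level lay between days 2 and 4 in 96 genes and above day 4 in 18. The median gene had covered 50.2% of the distance in CPM from day 2 to day 4 by day 3, with quartiles of 27.9 and 79.0%. Between days 3 and 4, the second of which the rule also used, 32 genes, 26.9%, were at least 0.80 higher at day 4 than at day 3, against 1.32% of eligible genes.

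**Figure D2:**
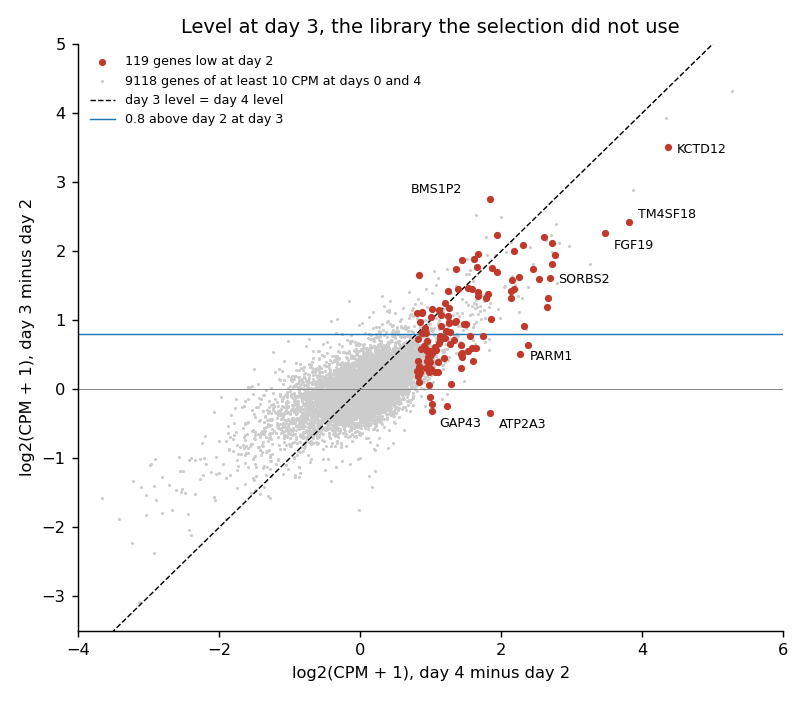
Change in log2(CPM + 1) from day 2 to day 3 (vertical axis) against the change from day 2 to day 4 (horizontal axis) for the 119 genes (red) and the 9118 eligible genes (grey). Red points begin at 0.80 on the horizontal axis by the rule; 63 lie above the blue line at 0.80, and BMS1P2 lies far above the dashed line of equal day 3 and day 4 levels. Both axes share the day 2 library.

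Secreted ligands and matrix-associated proteins, 14 genes grouped by role after their values were known, had the highest group median of day 3 minus day 2. By the share of the day 2 to day 4 distance covered, their median of 56.0% came after 73.9% in transcription, chromatin and RNA genes and 68.8% in transport and ion handling. Of the 14, 11 were at least 0.80 above day 2, and their median difference was 1.40. FGF19, an endocrine fibroblast growth factor known in the liver for restraining bile acid synthesis, had 22.4, 3.46, 20.4 and 48.4 CPM at days 0, 2, 3 and 4. Its day 3 level was 5.88-fold (3.55 to 10.3) that of day 2. Days 2 and 4 chose the genes, so its 13.98-fold ratio of day 4 over day 2 is a description only. PDGFA was 3.90-fold (2.42 to 6.55) day 2 at day 3, and its day 4 level matched day 0 within counting error, at a ratio of 1.01 (0.797 to 1.28). Thus one growth factor ended above its start and the other at it.

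SFRP1, a secreted antagonist of WNT signalling, returned only in part. It had 525, 43.7, 149 and 163 CPM at days 0, 2, 3 and 4, which put day 3 at 3.42-fold (2.95 to 3.98) day 2 but left day 4 at 0.310 (0.287 to 0.334) of day 0. EDIL3 and MFGE8 are related secreted proteins that bind integrins through an RGD motif. EDIL3 had 43.1, 11.7, 54.01 and 82.8 CPM and passed its day 0 level by day 3. MFGE8 had 468, 131, 195 and 276 CPM and remained below its day 0 level at day 4. So the pair dipped together but ended on opposite sides of their starting levels.

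Other secreted members, of which GAS6, CCBE1, IGFBP2 and PCSK5 were chosen for mention after their values were seen, have known places in vessel biology and growth factor handling. GAS6, the ligand of the AXL family of receptors, had 16.9, 6.73, 18.6 and 23.5 CPM at days 0, 2, 3 and 4. CCBE1, which helps process VEGFC in lymphatic growth, had 21.4, 6.07, 26.5 and 21.5 CPM with no difference between days 3 and 4 beyond counting error. IGFBP2, which binds insulin-like growth factors, had 119, 39.1, 61.7 and 107 CPM. In all 3, day 4 was within 0.80 of day 0. MAMDC2, an extracellular protein with MAM domains, had 25.6, 5.96, 9.80 and 35.3 CPM, with most of its return between days 3 and 4. CA11, a secreted protein related to carbonic anhydrases but without their activity, had 41.3, 5.58, 19.8 and 10.7 CPM and was lower at day 4 than at day 3. PCSK5, a convertase that cleaves secreted precursors, had 11.5, 3.25, 10.6 and 18.3 CPM, and its deposited transcript length, averaged over isoforms, was 3811, 8074, 3905 and 3815 bp at days 0, 2, 3 and 4. Its day 2 length rested on 17 reads, so no change of isoform is read from it. A length that differed at least 1.2-fold between libraries occurred in 2 of the 119 genes and in 1.11% of eligible genes; the other was DENND1A.

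Of 16 receptors and other surface proteins, 8 were at least 0.80 higher at day 3, and their median difference was 0.86. NPR1 was 6.16-fold (3.32 to 12.5) day 2 at day 3 and 8.28-fold at day 4. Of the named surface genes TM4SF18 ended highest relative to its trough, at 21.6-fold the day 2 level. The rule used days 2 and 4, so these day 4 ratios are descriptions only. TSPAN5, a tetraspanin that regulates the protease ADAM10, had 27.4, 15.2, 47.9 and 92.8 CPM at days 0, 2, 3 and 4, and LRP11, a member of the LDL receptor family, had 31.8, 11.5, 27.5 and 77.4 CPM. All of TM4SF18, TSPAN5 and LRP11 were thus above their stem cell level at day 4.

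Other surface genes came back only in part. CD24, a heavily glycosylated surface protein that is a familiar marker of undifferentiated cells, had 3162, 497, 730.0 and 960.4 CPM at days 0, 2, 3 and 4, and its day 4 level was 0.304 (0.294 to 0.313) of day 0. LINGO1, a neuronal co-receptor, had 75.6, 8.47, 19.6 and 16.4 CPM, and PARM1, a mucin-like membrane protein, had 28.8, 1.73, 2.88 and 12.2 CPM. GPC3, a heparan sulfate proteoglycan of the cell surface, was chosen for mention after its values were seen and had 49.8, 9.43, 13.5 and 27.3 CPM. In these 4 genes the day 4 level was at least 0.80 below day 0. FGFR2, a receptor of fibroblast growth factors, had 88.8, 47.9, 57.3 and 86.8 CPM, so its dip was shallow but day 4 equalled day 0 within counting error. CD24 has 5 named pseudogene copies in the gene table, and its reads may be shared with them.

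**Figure D3:**
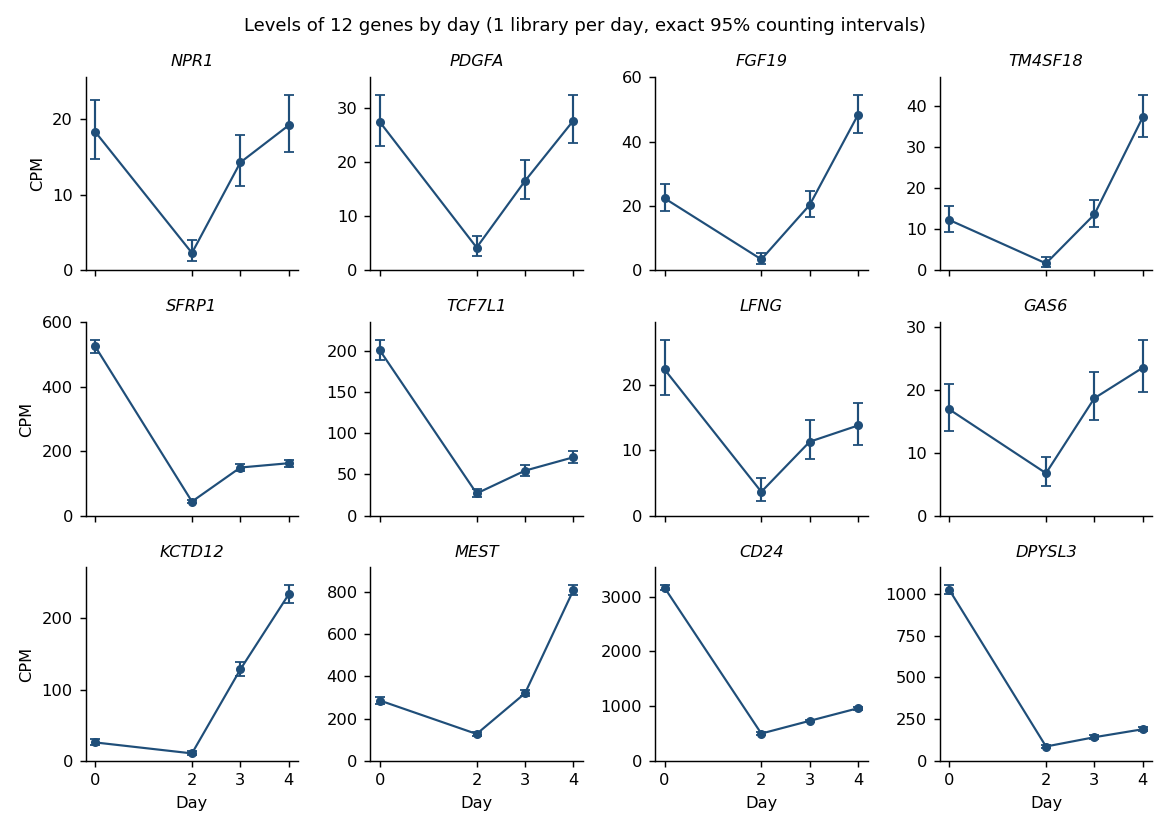
CPM at days 0, 2, 3 and 4, on a linear axis from 0 with its own scale in each panel, for 12 genes of the set, with exact 95% Poisson intervals that cover counting error only. NPR1 and PDGFA end where they began, KCTD12, TM4SF18 and MEST end above it, and SFRP1, CD24 and DPYSL3 end below it.

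Among 19 signalling proteins inside the cell, 12 were at least 0.80 higher at day 3, with a median difference of 0.94. GNG2, a gamma subunit of heterotrimeric G proteins, had 44.3, 15.8, 58.2 and 109 CPM at days 0, 2, 3 and 4. LFNG, a Golgi enzyme that adds sugar to NOTCH receptors and so alters which ligands they answer, had 22.4, 3.66, 11.3 and 13.8 CPM. CNKSR2, a scaffold of the RAS pathway, had 34.9, 5.39, 10.8 and 11.1 CPM and stayed near its day 3 level. GNG2 passed its day 0 level by day 3, and LFNG and CNKSR2 had not at day 4.

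Of 12 genes acting in transcription, chromatin or RNA, 9 were at least 0.80 higher at day 3, and their median difference was 0.98. TCF7L1, which represses WNT target genes in pluripotent cells, had 200.5, 26.9, 54.6 and 70.8 CPM at days 0, 2, 3 and 4. CDCA7L, a MYC-interacting nuclear protein chosen for mention after its values were seen, had 187, 32.3, 62.8 and 91.2 CPM. Both were lower at each later day than at day 0. BNC2, a zinc finger protein, had 35.5, 3.57, 17.2 and 19.7 CPM, with nearly all of its return by day 3. FOSL1, a subunit of AP-1, had 15.5, 8.27, 19.99 and 21.1 CPM. It was the only gene of the set among 19 eligible genes on the list of immediate early genes, against 119 of all 9118 eligible genes. SUV39H1, a methyltransferase of histone H3 lysine 9 and chosen for mention after its values were seen, had 20.8, 10.01, 17.3 and 18.4 CPM.

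Transport and ion handling held 10 genes, 5 of them at least 0.80 higher at day 3, with a median difference of 0.84. UNC79, an accessory subunit of the sodium leak channel NALCN, had 11.5, 2.69, 16.3 and 13.1 CPM at days 0, 2, 3 and 4. ITPR1, the inositol trisphosphate receptor that releases stored calcium, was chosen for mention after its values were seen and had 13.9, 6.54, 24.8 and 22.8 CPM. ATP2A3, a calcium pump that refills the same store, had 33.5, 6.16, 4.61 and 24.6 CPM. RNA of ITPR1 was thus above its day 0 level at day 3, when RNA of ATP2A3 was still at its trough. These are single genes, and calcium handling was not measured. SLC29A1, a nucleoside transporter, had 221, 25.01, 60.9 and 58.8 CPM, and SPNS2, which exports sphingosine 1-phosphate, had 48.8, 20.2, 21.1 and 40.8 CPM. SLC43A3, a nucleobase transporter, had 48.03, 17.1, 14.6 and 35.7 CPM. At day 3, SPNS2 and SLC43A3 were level with day 2 within counting error.

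The lowest group median of day 3 minus day 2, 0.49, was that of 13 genes of metabolism and mitochondria, of which 3 were at least 0.80 higher. Single genes of other groups were lower still, and by the share of distance covered the surface genes had the lowest median, 32.7% against 40.7% here. ATP5MC2, which encodes the c subunit of mitochondrial ATP synthase, had 125, 65.4, 86.7 and 127 CPM at days 0, 2, 3 and 4. It was the only one of 32 respiratory chain genes on the list without NDUF and COX genes that belonged to the set, against 119 of all 9118 eligible genes. SORD, the sorbitol dehydrogenase, had 128, 44.1, 47.3 and 79.6 CPM. TMT1A, a membrane methyltransferase, had 60.4, 13.4, 54.3 and 96.7 CPM, so its day 3 level was already close to that of day 0, unlike those of ATP5MC2 and SORD. No gene of this group ended 0.80 or more away from day 0 at day 4.

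Cytoskeletal and neurite genes, 7 in all, went separate ways, with 4 at least 0.80 higher at day 3 and a median difference of 0.92. DPYSL3, a regulator of growth cone microtubules, had 1025, 85.6, 141 and 189 CPM at days 0, 2, 3 and 4, the largest shortfall at day 4 of the set. GAP43, a growth cone protein, had 28.2, 5.003, 3.84 and 11.1 CPM and was still at its trough at day 3. CTNND2, delta-catenin, had 13.7, 6.35, 30.4 and 35.3 CPM, and DYSF, a protein of membrane repair in muscle, had 29.2, 13.9, 27.1 and 73.5 CPM. Both of these were above day 0 at day 4. GAP43 was the only gene of the neural list in the set, out of 12 neural genes that reached 10 CPM at days 0 and 4. Of all 9118 eligible genes 119 were in the set.

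**Figure D4:**
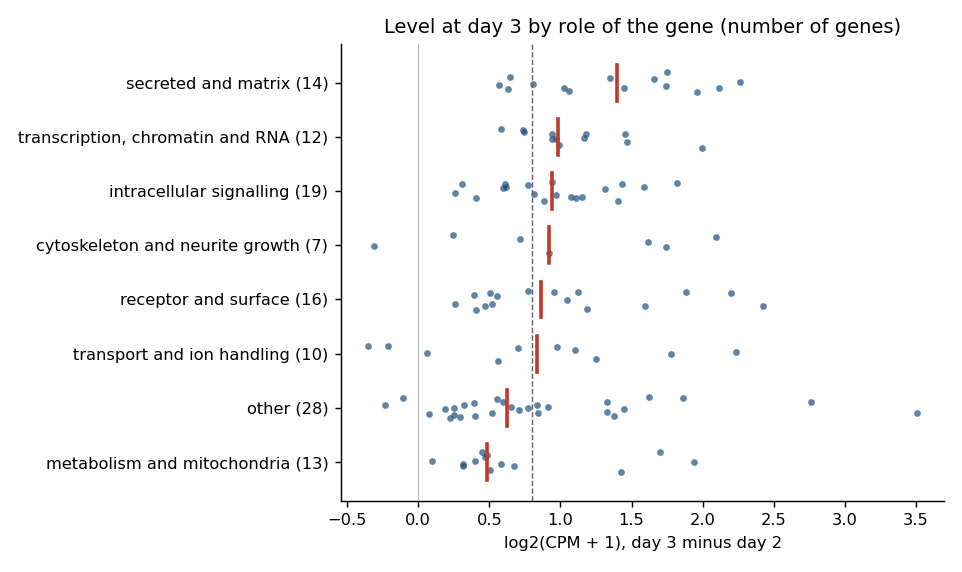
Day 3 minus day 2 in log2(CPM + 1) for each of the 119 genes by role group, with the group median as a red bar. Medians run from 1.40 in secreted and matrix genes to 0.49 in metabolism and mitochondria, and the groups overlap over most of their range.

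The remaining 28 genes had no shared role; 11 were at least 0.80 higher at day 3, and their median difference was 0.62. KCTD12, an auxiliary subunit of GABA-B receptors, had 25.8, 10.4, 128 and 234 CPM at days 0, 2, 3 and 4. Its day 3 level was 12.4-fold (9.36 to 16.6) day 2, the largest such ratio in the set, and its day 4 level was 9.07-fold (7.56 to 10.9) day 0. MEST, an imprinted gene expressed from the paternal copy, had 286, 127, 320.4 and 809.9 CPM and was likewise above its start by day 3. NTHL1, a glycosylase of base excision repair, had 16.5, 5.96, 6.34 and 16.02 CPM. SCFD2, a relative of vesicle-docking proteins, had 16.1, 7.12, 6.53 and 15.1 CPM. These last 2 genes were near their trough at day 3 and near their day 0 level a day later.

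How complete the return was differed widely. The median of day 4 minus day 0 was 0.04, with a range of -2.43 to 3.13. Of the 119 genes, 90, or 75.6%, were within 0.80 of day 0 at day 4, near the 77.4% of eligible genes, and in 58 the counting interval of the ratio held 1. A further 11 genes, 9.24%, were at least 0.80 above day 0, against 11.5% of eligible genes. They were FGF19, TM4SF18, EDIL3, GNG2, LRP11, KCTD12, MEST, TMEM141, DYSF, CTNND2 and TSPAN5. Another 18, or 15.1%, were at least 0.80 below it, against 11.1% of eligible genes. These were SORBS2, PARM1, BNC2, SFRP1, SMG1P5, CDCA7L, GPC3, TCF7L1, SLC29A1, DPYSL3, GAP43, BCAM, ANKRD13B, CD24, CNKSR2, LINGO1, TNIK and CA11. Days 0 and 4 chose the genes, so nothing is read from these counts, and the name of the set as returning does not describe these 18 in full.

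**Figure D5:**
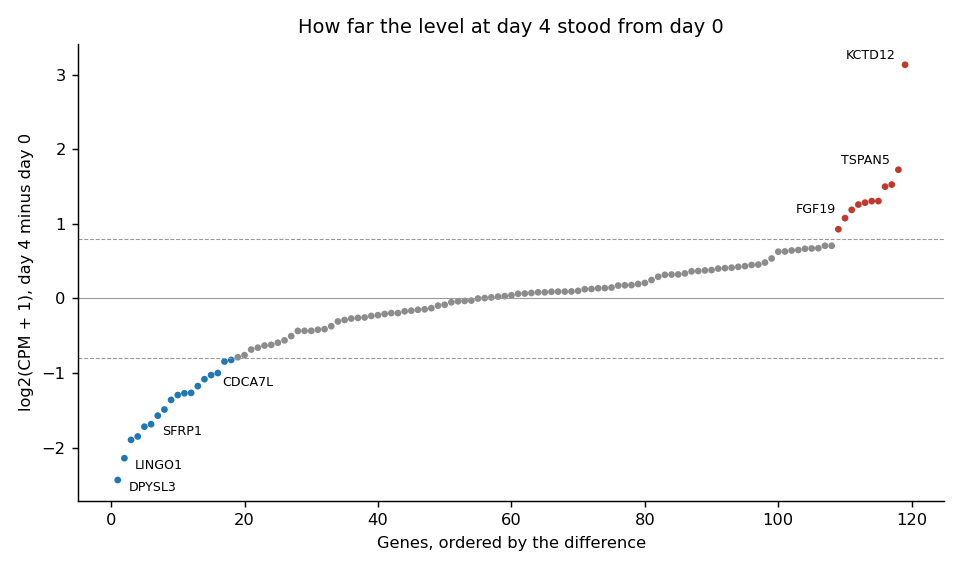
Day 4 minus day 0 in log2(CPM + 1) for the 119 genes in rising order. Dashed lines mark 0.80 on either side of 0; 11 genes lie above the upper line (red) and 18 below the lower (blue).

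At day 3, 12 genes, or 10.1%, stood above both their day 0 and their day 4 level, against 26.7% of eligible genes. The rule chose genes with days 0 and 4 above day 2, so the lower share partly follows from it and was not tested. The counting interval of day 3 over day 4 lay above 1 in 3 of the 12, BMS1P2, SLC7A2 and the gene ID without a name, and held 1 in the others. Those others were UNC79, CCBE1, ITPR1, TRIL, SPTB, CRTC1, AFF2, PLPP3 and RAPGEFL1. SPTB, the beta spectrin of red cell membranes, and TRIL were chosen for mention after their values were seen. SPTB had 10.9, 5.003, 19.03 and 14.4 CPM at days 0, 2, 3 and 4. TRIL, a co-receptor of toll-like receptors, had 10.3, 3.66, 16.1 and 13.3 CPM. At the other end, 5 genes were lowest at day 3 and not at day 2: ATP2A3, GAP43, SLC43A3, SCFD2 and LSMEM2, which had 10.1, 5.39, 4.42 and 14.02 CPM. In none of these 5 did the day 3 over day 2 interval lie below 1.

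Compared per transcript length, in the deposited FPKM, a read level divided by transcript length and library size, CD24 was the most abundant gene of the set at every day, at 1444, 227, 334 and 438 FPKM at days 0, 2, 3 and 4. MEST had 117, 52.4, 132 and 336 FPKM and ATP5MC2 had 142, 74.1, 99.05 and 145 FPKM. MFGE8 had 236, 66.1, 98.2 and 139 FPKM. The order of MEST and ATP5MC2 thus turned: ATP5MC2 was above MEST at days 0 and 2 and below it at days 3 and 4. Transcript length itself was ordinary, with a median of 3204 bp against 3308 bp in eligible genes.

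The 2 lists with the most members held more genes that were higher at day 2 than genes that were lower. Among VEGF, PDGF and FGF ligands and receptors, 3 of the 16 genes that reached 10 CPM at days 0 and 4 were in the set: PDGFA, FGF19 and FGFR2. Of all 9118 eligible genes 119 were in the set. The lists were chosen with earlier results of these data known, and the difference was not tested. Of the 29 measured genes on that list, 15 were higher and 6 lower at day 2 than at day 0 by 0.80 or more, with a median of 0.81. Those counts are 51.7 and 20.7% of the list, against 15.3 and 14.4% of all 15403 measured genes, whose median was -0.06. FGF2 and FLT4 were chosen for mention after their values were seen. FGF2 itself had 214, 70.8, 49.1 and 32.8 CPM at days 0, 2, 3 and 4 and so was lower at each later day. FLT4, the VEGF receptor of lymphatic vessels, had 9.07, 3.85, 6.09 and 16.9 CPM and missed the set through its day 0 level.

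On the WNT and NOTCH list, 3 of 19 eligible genes were in the set, against 119 of all 9118, a difference that was not tested. They were SFRP1, TCF7L1 and LFNG. Of 36 measured genes, 17 were higher and 8 lower at day 2, which is 47.2 and 22.2%, against the same 15.3 and 14.4% of all measured genes, and the list's median was 0.41. LEF1, TCF7 and SFRP2 were chosen for mention after their values were seen. LEF1, an activating partner of beta-catenin, had 1.19, 54.1, 124 and 141 CPM at days 0, 2, 3 and 4. TCF7, of the same family, had 11.4, 63.4, 40.7 and 23.95 CPM. Both were thus highest after day 0, where their relative TCF7L1 was highest at day 0. SFRP2, the close relative of SFRP1, had 532, 132, 161 and 74.3 CPM and did not return.

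FLT1 and THY1, which the rule exempts from the exclusions by name, did not pass the dip rule. FLT1, a receptor for VEGF, had 236, 159, 836 and 1092 CPM at days 0, 2, 3 and 4, and its day 2 level was 0.57 below day 0 on the log2 scale. THY1, a surface glycoprotein of stem cells, had 360.3, 92.5, 81.5 and 102 CPM and showed no return. At the edge of the rule, the members UBL5 and LSMEM2 were among those with the smallest dips, each 0.80. UBL5 had 36.3, 20.4, 25.2 and 41.7 CPM. Just outside, TELO2 had 37.1, 18.1, 25.6 and 32.2 CPM, ECHS1 had 68.9, 35.4, 44.6 and 62.3 CPM and ASB3 had 15.3, 8.44, 24.2 and 28.6 CPM. Members and outsiders at the edge could not be told apart by level.

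Some members are uncertain because near-identical copies can split their reads. The pseudogenes BMS1P2, SMG1P5 and LOC728554 and the NPIPA1 family belong here, and BMS1P2 had 29.2, 5.24, 41.2 and 21.3 CPM at days 0, 2, 3 and 4. A further 16 genes, CD24, MEST, ATP5MC2, UBL5, FOSL1, TMT1A and CLUH among them, have named pseudogenes. The share of eligible genes with named pseudogenes was not computed, so this count is not read as a trait of the set. MOB4 had 10.6, 2.70, 8.27 and 11.7 CPM on its own, and the overlapping read-through model HSPE1-MOB4 had 114, 118, 88.7 and 81.7 CPM. Their sum, 124.6, 120.6, 97.0 and 93.4 CPM, had no dip. Most of that sum was the read-through model, so it cannot show whether MOB4 itself dipped. For FXYD6 the same sum with FXYD6-FXYD2 was 32.9, 16.8, 25.6 and 50.2 CPM, and the dip remained. FXYD6-FXYD2 had no more than 0.834 CPM at any day, so that sum could hardly differ from FXYD6 alone.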

How the data were processed

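RNA-seq was available for 4 libraries of H1 cells, 1 per day. Per the submitters' processing notes, BWA, Bowtie, RSEM and the hg19 assembly were used; versions and steps were not given in the sources used here. Per the file headers, the authors deposited for each Entrez gene an expected count, a transcript length and FPKM. CPM were computed here as the expected count over the sum of its file, and log2(CPM + 1) was compared between days. A gene not listed in a file was taken as 0. Counts were rounded to whole numbers for intervals: exact Poisson for CPM, exact conditional binomial for ratios, both at 95%. With no replicates there was no test, and a difference of 0.8 stood in for one. Names came from RefSeq (GRCh38.p14), which matched 19273 of 19390 IDs. The members, the 28 lists and the motifs were chosen with earlier results of these data known. Named genes are the 12 deepest dips, the 8 highest at day 4, and the 8 at each end of day 3 minus day 2. They include the 8 at each end of day 4 minus day 0, 3 on each side of the threshold and up to 4 from each list. FLT1 and THY1 are named too, as are cell type markers, genes that complete a count, and genes with copies or read-through partners. Others are said to be chosen after their values were seen. A gene that the rule names is not reported here. Alternatives used TMM (edgeR 4.0.16), size factors (DESeq2 1.42.0), FPKM, other pseudocounts, minima and thresholds. Python 3.11.15, pandas 2.3.3, scipy 1.17.1 and R 4.3.3 were used. The selection was also run on simulated counts that held counting error only, with changes planted in genes of higher counts. That run cannot show how it behaves with differences between cultures or with few reads, and nothing is read from it.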

Additional observations from a re-analysis of the deposited data

How the results depend on the processing

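The reported set of 119 genes changed in size with the selection settings. It held 66 genes with a pseudocount of 5, 190 with a minimum of 5 CPM, 65 with a minimum of 20, 356 with no minimum, 242 with a log2 difference of 0.6 and 67 with a difference of 1. Under TMM it held 105, all among the 119, under size factors 100, and under FPKM 107, of which 66 were shared. Of the 53 reported genes not chosen on FPKM, 26 were under the minimum of 10 on that scale and 27 had a dip under 0.8. All 119 had a dip above 0 on FPKM. Median length was 100 bp in the 41 genes chosen on FPKM only and 3982 bp in the 53 not chosen. The median of all eligible genes at day 4 minus day 2 was -0.07 on FPKM and 0.04 on CPM. The count of genes at least 0.80 higher at day 3, 63 as reported, lay between 46 and 66 when the same genes were recomputed with other scalings, pseudocounts, FPKM or protein-coding genes alone. The median of day 3 minus day 2 was 0.64 with a pseudocount of 5, against 0.84 as reported. The median of day 3 minus day 4 was -0.36 on FPKM, against -0.52. The median length, 3204 bp as reported, was 1815 bp for the FPKM selection, 2846 bp with no minimum and 2564 bp with a difference of 0.6. Of 210 recomputed day 3 minus day 2 values of named genes, 209 moved by less than their own 95% counting error, which is wide at few reads; that of BMS1P2 did not, at 2.17 with a pseudocount of 5 against 2.76, and 0 reversed. With that pseudocount 3 named genes were no longer at least 0.80 higher at day 3: SORBS2 at 0.71 against 1.62 as reported, CNKSR2 at 0.60 against 0.88, and DYSF. Under the other scalings, FPKM and the pseudocount of 0.1, 0 of the 42 named genes crossed that line. The cause of these shifts was not tested. No paired analysis was possible because each day has 1 library and the labels carry no replicate numbers. Depth limits single genes most at day 2, where 61 of the 119 had under 50 reads.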
